A study of Rattus norvegicus with 6 samples.

Results

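The 10 genes described here make fatty acids from acetyl units in the cytosol of the liver cell, or control that synthesis. They are Srebf1 and Thrsp, which control it, Acly and Acss2, which supply acetyl-CoA, Acaca and Fasn, which build the chain, Me1, which supplies NADPH, and Scd, Elovl5 and Elovl6, which desaturate and lengthen the product. A member is a probe set, the group of short oligonucleotides that measures a transcript on an Affymetrix array, whose only gene symbol in the platform annotation is that of 1 of these genes. This gave 18 probe sets, of which 17 passed the filter on low values, and all 10 genes had at least 1 that passed. They stand among 10449 genes with a probe set of their own past the filter, called all genes below. Each gene is represented by its probe set with the highest mean over the 6 arrays, and its other probe sets are given beside it.

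In the liver, citrate leaves the mitochondrion and is cleaved to acetyl-CoA, acetyl-CoA carboxylase turns this into malonyl-CoA, and fatty acid synthase joins malonyl units into palmitate at the cost of NADPH. Insulin and feeding raise the transcription of most of these genes through the sterol regulatory element binding protein SREBP-1, and carbohydrate does so through the glucose-sensing factor ChREBP. Fasting lowers them, and the order of feeding and rest over the day gives them a daily rhythm.

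The livers came from male Sprague Dawley rats of 210 to 230 g gavaged with tienilic acid (TA), a diuretic that lowers uric acid and was taken off the market because of hepatitis, or with its vehicle. The TA group of 6 h had 2 animals, each killed 6 h after 1 dose of 100 mg/kg in 1 mL, and the vehicle group of 6 h had 2 rats given sodium bicarbonate once. The TA group of 24 h had 2 other animals, dosed at 0 and 16 h and killed at 24 h, and the vehicle group of 24 h had 2 rats given sodium bicarbonate at the same times. RNA of each TA animal was put on an array of its own, while the RNA of the 2 vehicle rats of a time was pooled on 1 array, so that 8 animals filled 6 arrays. A vehicle group therefore has no spread of its own, and all animals had free access to chow.

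Expression is given on the log2 scale of the deposited table, where a difference of 1 is 2-fold. Array medians lay between 3.27 and 3.31, correlations between arrays over all probe sets lay between 0.991 and 0.997, and the median standard error of a difference between TA and vehicle was 0.15. No label names a hybridize run. Runs were inferred from the hybridize clock times in the instrument settings, with arrays a few minutes apart taken as 1 run. This put the vehicle pool of 6 h and TA animal 1 of 6 h in 1 run and the 4 other arrays in another. Every array of 24 h was therefore in the second inferred run, and for the vehicle pools run and time cannot be told apart. The labelled tissue was checked with 6 measured hepatocyte markers, and the log2 of their summed level was 18.2 and 18.1 in TA animals and 18.2 in the vehicle pool at 6 h, and 18.1 on each of the 3 arrays of 24 h. Arrays carry no counting depth, and in bulk liver fewer cells of a type and less RNA per cell cannot be told apart.

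Among the representative probe sets, the largest differences from vehicle were those of Scd, which was lower in all 4 TA animals, with a mean log2 difference of -1.23 at 6 h and -0.90 at 24 h. Acaca was lower in all 4 as well, by more at 24 h than at 6 h in the mean. Srebf1 and Thrsp took the other course: both were lower than the vehicle pool in both TA animals at 6 h and higher than it in both at 24 h. The largest differences between TA at 24 h and TA at 6 h among the 10 genes were also theirs, with means of 1.59 for Srebf1 and 1.34 for Thrsp. For Acly and for the representative probe set of Elovl5 the difference from vehicle was smaller than its standard error at both times. None of these differences passed limma's test after Benjamini-Hochberg adjustment over 18625 probe sets, so all are given as values.

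The promoters of Srebf1 and Thrsp are shown because these genes took the same course over the 4 groups, and that of Scd because it stood furthest below vehicle. RefSeq windows of the GRCr8 build, from 250 bases before to 50 after a transcription start, matched 7 of the 10 genes, with 2 starts for Srebf1 and 8 windows in all. Fasn, Acaca and Elovl6 were not matched. The windows shown lie on the minus strand and are read 5′ to 3′ in the direction of transcription, with capitals marking the NF-Y box CCAAT on either strand, ATTGG being its reverse.
Srebf1, upstream start, chr10:45529115-45529414: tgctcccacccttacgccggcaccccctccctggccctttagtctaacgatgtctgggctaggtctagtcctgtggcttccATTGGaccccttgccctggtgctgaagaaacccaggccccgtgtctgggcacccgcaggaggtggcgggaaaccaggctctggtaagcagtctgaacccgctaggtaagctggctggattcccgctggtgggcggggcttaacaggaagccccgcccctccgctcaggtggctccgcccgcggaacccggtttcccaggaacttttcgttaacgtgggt
Srebf1, downstream start, chr10:45518961-45519260: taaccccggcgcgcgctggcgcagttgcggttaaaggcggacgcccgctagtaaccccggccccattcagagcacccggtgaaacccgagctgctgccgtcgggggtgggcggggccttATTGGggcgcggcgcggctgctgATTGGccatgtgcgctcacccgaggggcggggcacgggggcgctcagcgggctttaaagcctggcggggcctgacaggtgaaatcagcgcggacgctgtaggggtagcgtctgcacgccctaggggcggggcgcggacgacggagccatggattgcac
Thrsp, chr1:161138915-161139214: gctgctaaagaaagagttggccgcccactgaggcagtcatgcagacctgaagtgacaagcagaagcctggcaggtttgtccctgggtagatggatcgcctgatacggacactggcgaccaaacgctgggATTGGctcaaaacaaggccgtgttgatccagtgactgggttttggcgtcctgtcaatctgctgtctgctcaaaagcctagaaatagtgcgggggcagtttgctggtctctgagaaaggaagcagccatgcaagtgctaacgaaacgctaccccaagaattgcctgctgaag
Scd, chr1:253231682-253231981: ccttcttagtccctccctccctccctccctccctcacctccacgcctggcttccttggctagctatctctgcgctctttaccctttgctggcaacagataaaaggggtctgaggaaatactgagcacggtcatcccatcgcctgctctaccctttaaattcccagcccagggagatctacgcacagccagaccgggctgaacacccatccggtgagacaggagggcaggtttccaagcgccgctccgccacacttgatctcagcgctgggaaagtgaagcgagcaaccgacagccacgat
The NF-Y box, bound by a factor that works beside SREBP-1, began 169 bases before the upstream start of Srebf1, 131 and 108 bases before its downstream start and 121 bases before that of Thrsp, while the Scd window holds none. The windows of Scd, Acly and Acss2 lie wholly inside the spans of these genes. Their starts are thus not the outermost ones, and windows at the outermost starts of these genes were not searched. Of all 8 windows 6 held it, Acly (71 bases before its start), Acss2 (73) and Elovl5 (122 and 68) included, against 37.5% of 33469 windows of the same length in the genome. The E box CACGTG was in 1 of the 8, that of Elovl5 at 212 bases before its start, against 6.42% of all windows. The core of the sterol regulatory element TCACNCCAC was in 0 of the 8, against 1.12%. Both strands were searched, no 2 matches overlapped, and these are letters in a window, not sites.

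Srebf1 encodes SREBP-1, the transcription factor that switches on most of the other genes here (chr10:45507152-45529164, GRCr8). Its representative probe set was at 10.20 and 10.01 in the TA animals of 6 h, against 10.62 in the vehicle pool. At 24 h it was at 11.72 and 11.66 in the TA animals, against 11.36 in the vehicle pool. The order of the levels was thus TA at 6 h, vehicle at 6 h, vehicle at 24 h and TA at 24 h, and the 2 animals of a TA group lay 0.19 apart at 6 h and 0.068 at 24 h, less than any gap between the groups. The mean log2 difference of TA from vehicle was -0.52 ± 0.13 (SE, n = 2 TA animals against 1 pool) at 6 h, a ratio of 0.697, with limma's adjusted p = 0.80. At 24 h it was 0.33 ± 0.13, a ratio of 1.26, with limma's adjusted p = 0.97. The second probe set gave the same order of groups, with 6.57 and 6.23 in TA animals against 7.15 in the pool at 6 h, and 8.40 and 8.32 against 7.81 at 24 h. Its differences were -0.75 ± 0.18 and 0.55 ± 0.18. TA at 24 h stood 1.59 ± 0.11 above TA at 6 h, a ratio of 3.00, and 1.96 ± 0.15 on the second probe set (limma, adjusted p = 0.136 for each), while the vehicle pools differed by 0.74 and 0.66 in the same direction. By size the 2 probe sets ranked 141 and 59 among the 18625 in that comparison.

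**Figure D1:**
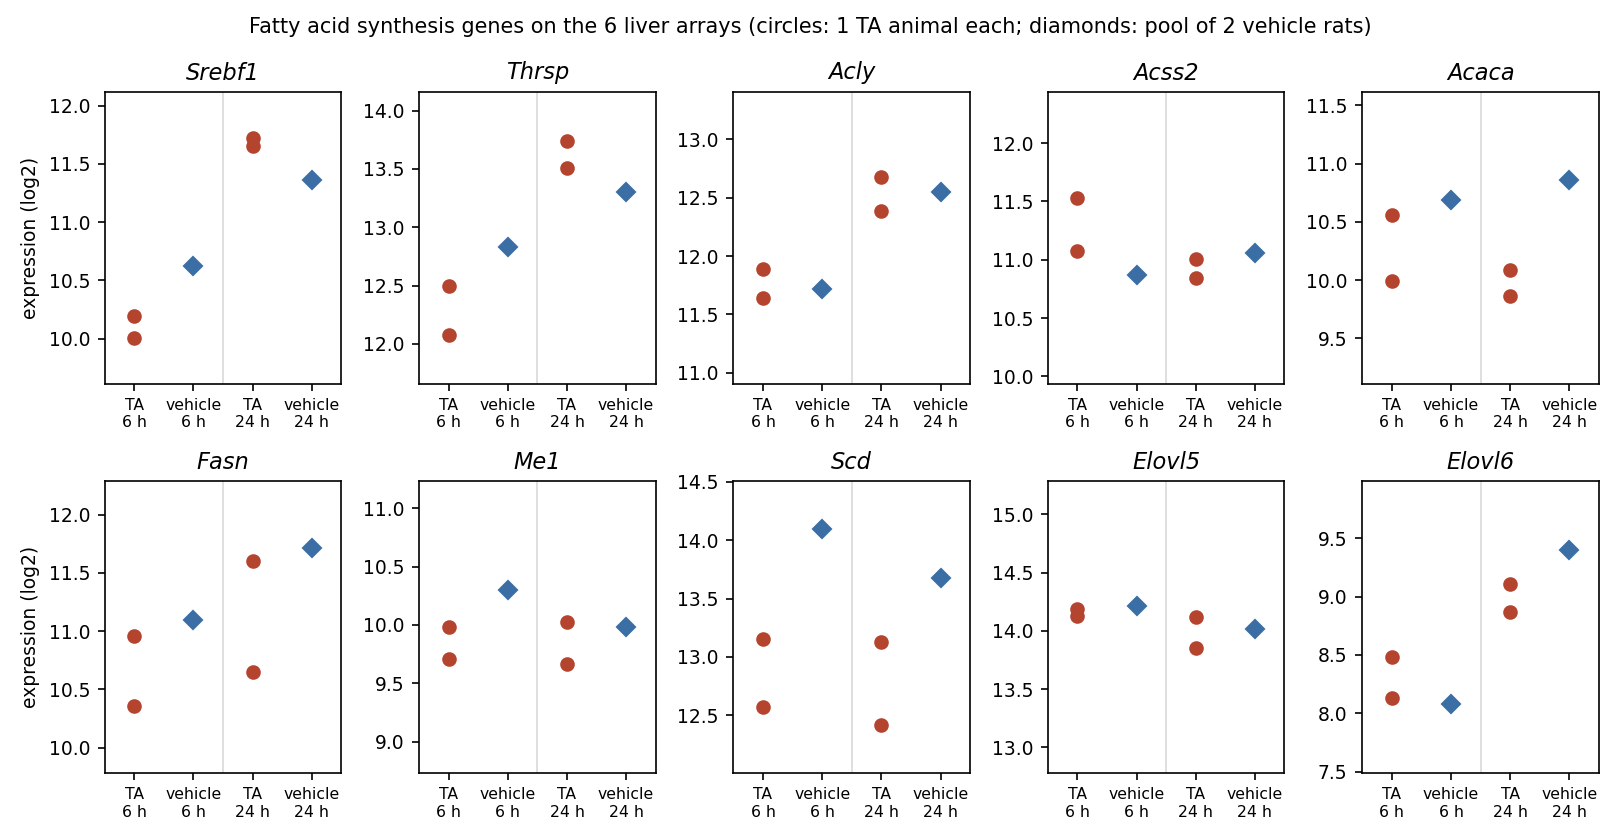
Log2 expression (vertical axis, each panel spanning the same number of log2 units) of the representative probe set of each of the 10 genes on the 6 arrays, with TA left of vehicle at each time. Circles are single TA animals and diamonds are pools of 2 vehicle rats. For Srebf1 and Thrsp both TA circles lie below the diamond at 6 h and above it at 24 h, and for Scd and Acaca all 4 circles lie below both diamonds.

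Thrsp encodes Spot 14, a small protein induced by thyroid hormone and carbohydrate that promotes fatty acid synthesis (chr1:161134640-161138964). It was at 12.08 and 12.49 in the TA animals of 6 h, against 12.83 in the vehicle pool. At 24 h it was at 13.51 and 13.74 in the TA animals, against 13.30 in the pool. The groups had the same order as those of Srebf1, and TA animals of 6 h did not overlap with those of 24 h. Against vehicle the log2 difference was -0.54 ± 0.24 at 6 h, a ratio of 0.686, and 0.33 ± 0.24 at 24 h, a ratio of 1.25 (limma, adjusted p = 0.91 and 1.00). Its 2 other probe sets had -0.49 ± 0.24 and -0.44 ± 0.32 at 6 h. At 24 h they had 0.58 ± 0.24 and 0.93 ± 0.32, so that the 3 probe sets shared both directions. On the third probe set the TA animals of 24 h were at 8.82 and 9.46, against 8.21 in the pool. TA at 24 h stood 1.34 ± 0.19 above TA at 6 h, and 1.65 ± 0.19 and 1.64 ± 0.26 on the other probe sets (limma, adjusted p from 0.171 to 0.188). The vehicle pool of 24 h stood 0.47, 0.58 and 0.26 above that of 6 h on the same probe sets.

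In both Srebf1 and Thrsp the TA animals of 6 h lay below both vehicle pools and those of 24 h above both, which held for 3.45% of all 10449 genes. The direction at each time therefore did not depend on which pool was used for these 2 genes. The course of being lower than its own pool in both animals at 6 h and higher in both at 24 h was shared by 10.3% of all genes. The effect of TA at 24 h exceeded that at 6 h by 0.85 ± 0.18 for Srebf1 and by 0.87 ± 0.33 for Thrsp (limma's interaction contrast, adjusted p = 1.00 for each). That contrast called 1 probe set among 18625, 0.00537% of them, and it was no member.

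Acly encodes ATP citrate lyase, which cleaves citrate to acetyl-CoA in the cytosol (chr10:85912402-85964605). It was at 11.89 and 11.64 in TA animals, against 11.72 for vehicle, at 6 h, and at 12.68 and 12.38 in TA animals and 12.55 in the pool at 24 h. At each time the 2 TA animals lay on either side of the pool. The log2 difference from vehicle was 0.044 ± 0.20 at 6 h and -0.023 ± 0.20 at 24 h, and either sign turned when 1 TA animal of that time was left out. Between the times both kinds of liver had higher values at 24 h, by 0.77 ± 0.16 in TA (limma, adjusted p = 0.22) and by 0.83 in vehicle.

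Acss2 encodes acetyl-CoA synthetase, which makes acetyl-CoA from acetate (chr3:164464124-164507607). At 6 h it was at 11.53 and 11.07 in TA animals, both above the 10.87 of the vehicle pool. At 24 h it was at 10.84 and 11.00 in TA animals, both below the 11.06 of the pool. The log2 difference was 0.44 ± 0.24 at 6 h and -0.13 ± 0.24 at 24 h (limma, adjusted p = 0.98 and 1.00). Of the TA animals of 24 h, animal 1 lay below both pools and animal 2 between them, and against the pool of 6 h their mean difference was 0.056. TA at 24 h stood lower than TA at 6 h, with a difference of -0.38 ± 0.20, while the vehicle pools differed by 0.19 the other way. Acss2 and Elovl6 were the members that were higher than vehicle in both animals at 6 h and lower in both at 24 h. The share of all genes with this course was not counted.

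Acaca encodes acetyl-CoA carboxylase 1, which makes malonyl-CoA in the committed step of the pathway (chr10:69511627-69773888). It was at 10.00 and 10.56 in the TA animals of 6 h, against 10.68 in the vehicle pool, and in the TA animals of 24 h it was at 9.87 and 10.08, against 10.86. All 4 TA animals lay below both pools, as they did for Scd but for no other member, against 5.44% of all genes. The log2 difference was -0.41 ± 0.29 at 6 h, with -0.69 in animal 1 and -0.13 in animal 2, and -0.89 ± 0.29 at 24 h, a ratio of 0.541 (limma, adjusted p = 1.00 and 0.93). Without animal 1 the 6 h value was -0.13. The effect at 24 h minus that at 6 h was -0.48 ± 0.41 (limma's interaction contrast, adjusted p = 1.00). Its second probe set lay between 2.01 and 2.05 on all 6 arrays, at the floor of the values, and was not tested.

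Fasn encodes fatty acid synthase, which builds palmitate (chr10:106570415-106588581). It was at 10.36 and 10.96 in the TA animals of 6 h, against 11.09 in the vehicle pool, and in the TA animals of 24 h it was at 10.65 and 11.60, against 11.71. Animal 1 was the lower at each time, and animal 2 lay close to its pool. The log2 difference was -0.43 ± 0.52 at 6 h and -0.58 ± 0.52 at 24 h (limma, adjusted p = 1.00 for each), and the gap between the 2 TA animals, 0.60 at 6 h and 0.94 at 24 h, exceeded both. Its second probe set had -0.72 ± 0.49 and -0.34 ± 0.49, with animal 2 of 24 h at 10.76, above the pool at 10.63. Against the vehicle pool of 6 h the TA animals of 24 h had a mean difference of 0.034 on the representative probe set. No direction for Fasn can thus be read beyond the spread between animals.

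Me1 encodes malic enzyme, which yields NADPH from malate (chr8:96429057-96540244). It was at 9.71 and 9.98 in the TA animals of 6 h, both below the 10.30 of the vehicle pool. At 24 h the TA animals, at 10.02 and 9.67, lay on either side of the pool at 9.98. The log2 difference was -0.45 ± 0.22 at 6 h and -0.14 ± 0.22 at 24 h (limma, adjusted p = 0.95 and 1.00), and without animal 2 the value of 24 h was 0.042. The second probe set had -0.021 ± 0.46 at 6 h and -0.25 ± 0.46 at 24 h, and the 2 probe sets disagreed between the times. On the second, TA at 24 h stood 0.67 ± 0.37 above TA at 6 h and the vehicle pools differed by 0.90 in that direction, against -0.0024 ± 0.18 and -0.32 on the representative one.

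Scd encodes stearoyl-CoA desaturase, which puts the first double bond into stearate and palmitate (chr1:253218968-253232101). It was at 12.57 and 13.16 in the TA animals of 6 h, against 14.09 in the vehicle pool. At 24 h it was at 13.13 and 12.42 in the TA animals, against 13.67 in the pool. All 4 TA animals were below both pools. The log2 difference was -1.23 ± 0.43 at 6 h, a ratio of 0.426, and -0.90 ± 0.43 at 24 h, a ratio of 0.536 (limma, adjusted p = 0.85 and 1.00). By size its 6 h difference ranked 130 among the 18625 probe sets, and its 24 h difference ranked 329. TA animals of the 2 times overlapped, with a difference of -0.086 ± 0.35 between the group means, and the vehicle pool of 24 h was 0.42 below that of 6 h. Without each TA animal in turn, its difference from vehicle stayed between -1.53 and -0.94 at 6 h and between -1.26 and -0.54 at 24 h.

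Elovl6 lengthens palmitate to stearate (chr2:220738095-220845528). At 6 h it was at 8.13 and 8.48 in TA animals, both above the 8.08 of the vehicle pool. At 24 h it was at 9.11 and 8.87 in TA animals, both below the 9.40 of the pool. The log2 difference was 0.23 ± 0.21 at 6 h and -0.41 ± 0.21 at 24 h (limma, adjusted p = 1.00 for each), and the second probe set had 0.11 ± 0.41, with animals on either side of the pool, and -0.69 ± 0.41. Among the 10 genes it had the largest difference between the vehicle pools, 1.32, and 1.80 on the second probe set, with the pool of 6 h the lower. Both signs therefore turned when the pools were exchanged, to -1.09 at 6 h and 0.91 at 24 h. TA at 24 h stood 0.68 ± 0.17 above TA at 6 h (limma, adjusted p = 0.25).

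Elovl5 lengthens polyunsaturated fatty acids (chr8:87671164-87737618). Its representative probe set was at 14.19 and 14.12 in TA animals and 14.21 in the vehicle pool at 6 h, and at 14.12 and 13.85 in TA animals and 14.02 in the pool at 24 h. This was the narrowest span of any representative probe set among the 10 genes, 0.36 over the 6 arrays. The log2 difference from vehicle was -0.054 ± 0.16 at 6 h and -0.030 ± 0.16 at 24 h. The second probe set had the other sign, 0.21 ± 0.29 and 0.38 ± 0.29. Both probe sets were lower in TA at 24 h than in TA at 6 h, with differences of -0.17 ± 0.13 and -0.63 ± 0.23, and in the vehicle pool of 24 h than in that of 6 h.

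Taken as a group at 6 h, 7 of the 10 genes were lower than the vehicle pool in both TA animals, against 38.4% of all genes, and 2 were higher in both, against 22.9%. The 7 were Srebf1, Thrsp, Acaca, Fasn, Me1, Scd and Elovl5, and the 2 were Acss2 and Elovl6. These counts rest on the representative probe sets. Elovl5 had only -0.020 and -0.088 in the 2 animals, and its second probe set was higher in both, by 0.34 and 0.082. On the second probe sets of Me1 (-0.24 and 0.20) and Elovl6 (-0.22 and 0.45) the animals lay on either side of the pool. The median log2 difference of the 10 genes was -0.42, beside -0.028 over all genes. It was -0.51 in animal 1 and -0.13 in animal 2, and without animal 1 the median was therefore -0.13. Animal 1 had the widest gap of the 6 arrays between the 3′ and the 5′ control probe set of GAPDH, which widens as RNA degrades, with 2.26 against 1.82 to 2.04 elsewhere, and it shared its run with the vehicle pool while animal 2 did not. The part of these in the result was not tested. Limma called 0 of the 18625 probe sets at 6 h, 0%, while 1087 had an unadjusted p under 0.05, 5.84% of them. Of the 17 member probe sets 2 were among these, both of Srebf1.

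At 24 h, 5 of the 10 genes were lower than the vehicle pool in both TA animals, against 34.5% of all genes, and 2 were higher in both, against 28.1%. The 5 were Acss2, Acaca, Fasn, Scd and Elovl6, and the 2 were Srebf1 and Thrsp. The median difference was -0.14, with -0.086 in animal 1 and -0.17 in animal 2, beside -0.0084 over all genes. Fasn, Acaca and Scd were lower than the pool of their time in all 4 TA animals, 3 of 10 against 14% of all genes. On the second probe set of Fasn, animal 2 of 24 h lay above its pool, by 0.13. Limma called 1 probe set of the 18625 at 24 h, 0.00537%, which was no member. At an unadjusted p under 0.05 there were 984, 5.28% of the 18625. Of the 17 member probe sets 3 were among these, 1 each of Acaca, Srebf1 and Thrsp.

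**Figure D2:**
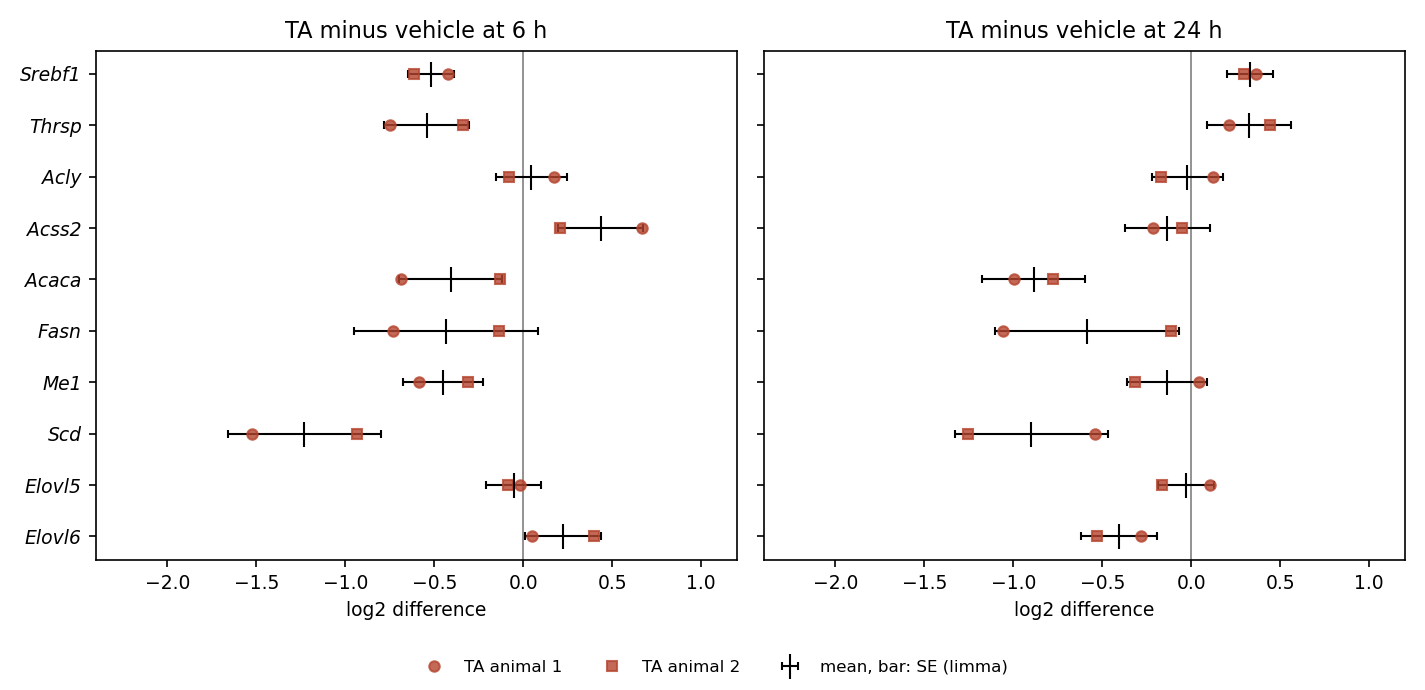
Log2 difference of each TA animal from the vehicle pool of its time (horizontal axis) for the representative probe sets of the 10 genes, at 6 h on the left and at 24 h on the right. Circles and squares are animals 1 and 2, the tick is their mean and the bar is limma's standard error. At 6 h 7 genes have both animals left of 0, and at 24 h Srebf1 and Thrsp have both animals right of 0 while Scd and Acaca stay left.

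Between the times, TA livers and vehicle livers are compared on their own arrays, with time since the first dose and number of doses changing together and the hour of killing not given. In TA, 4 of the 10 genes had both animals of 24 h above both of 6 h, Srebf1, Thrsp, Acly and Elovl6, against 24% of all genes, and 2 had both below, Acss2 and Elovl5, against 23.2%. The median difference of the 10 genes was 0.23 in TA, against -0.0016 over all genes, and it was 0.017 without animal 1 of 6 h and 0.42 without animal 2 of 6 h. In vehicle it was 0.33, against -0.0092 over all genes, with 7 of the 10 higher at 24 h, against 40.7% of all genes. Elovl6 was the 1 gene at least 2-fold higher, against 1.42% of all genes, with 0 at least 2-fold lower, against 1.57%. Between the TA groups limma called 0 of the 18625 probe sets, 0%, while 2760 had an unadjusted p under 0.05, 14.8% of them. Of the 17 member probe sets 8 were among these, namely those of Srebf1, Thrsp, Acly and Elovl6. With the hybridize run as a block, which compares the TA animals of 24 h with animal 2 of 6 h in the same run, the difference was 1.68 for Srebf1, 1.13 for Thrsp, 0.89 for Acly, 0.51 for Elovl6, 0.17 for Fasn, -0.58 for Acaca, -0.38 for Scd, -0.15 for Acss2, -0.14 for Elovl5 and -0.14 for Me1. The 4 higher genes kept their direction, and the median of the 10 was 0.017.

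**Figure D3:**
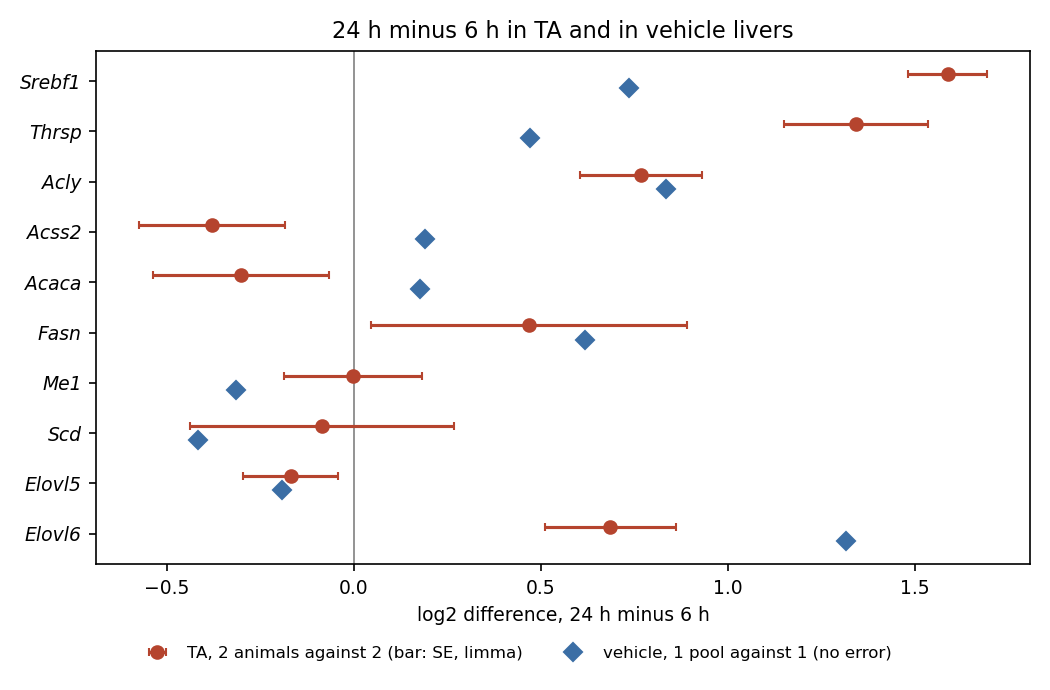
Log2 difference of 24 h minus 6 h (horizontal axis) for the representative probe sets of the 10 genes. Circles are the mean of 2 TA animals against 2 with limma's standard error, and diamonds are 1 vehicle pool against 1, with no error. Srebf1 and Thrsp lie furthest right in TA, at 1.59 and 1.34, against 0.74 and 0.47 in vehicle, while Elovl6 lies further right in vehicle.

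Of the 6 genes with more than 1 probe set past the filter, 5 had the same sign on all of them in the comparison with vehicle at 6 h, 5 at 24 h and 5 between the TA groups. The exception was Elovl5 in both comparisons with vehicle and Me1 between the times. The probe sets of Srebf1 and Thrsp, 5 in all, had negative values at 6 h and positive ones at 24 h without exception.

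**Figure D4:**
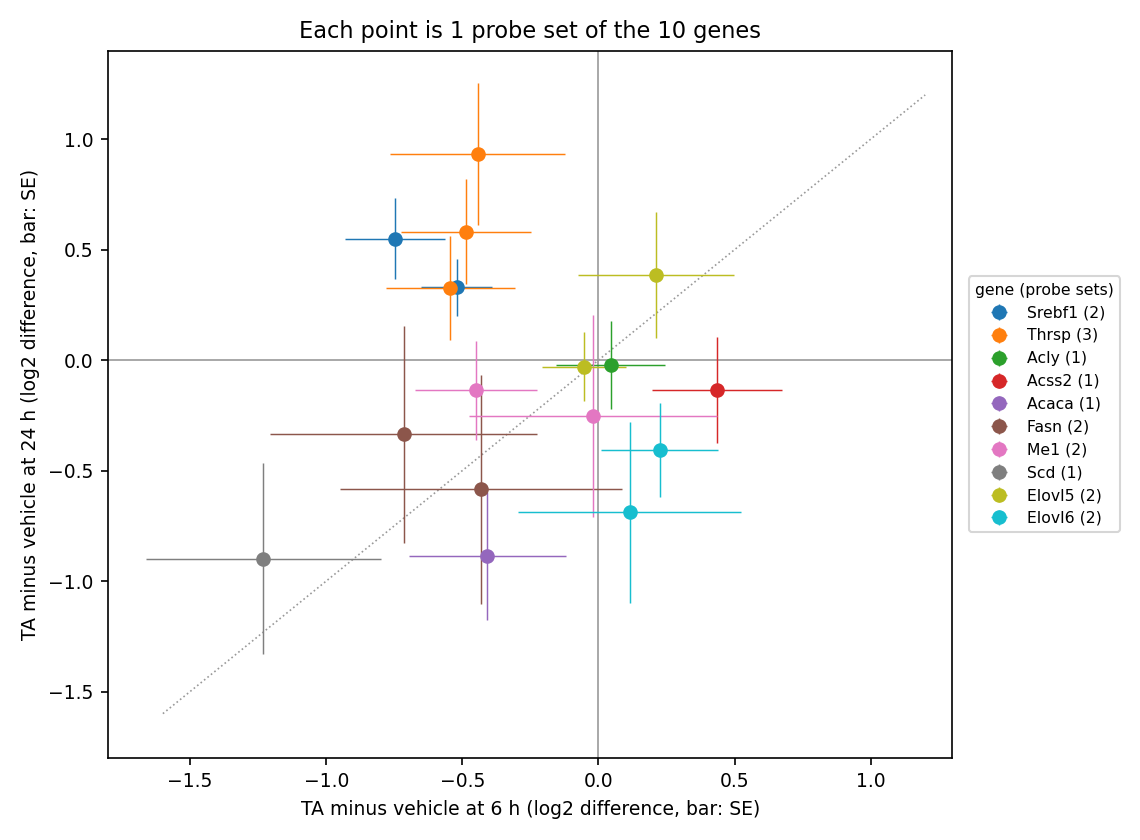
Log2 difference of TA from vehicle at 6 h (horizontal axis) and at 24 h (vertical axis) for the 17 probe sets of the 10 genes past the filter, coloured by gene, with limma's standard errors as bars. On the dotted line both differences are equal. The 5 probe sets of Srebf1 and Thrsp lie in the upper left part, and those of Scd, Acaca and Fasn in the lower left.

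Other genes of the pathway were taken from lists, and 0 genes of any list passed limma's test. Among partners of the pathway 20 of 25 genes were measured, with median differences of -0.043 at 6 h and 0.026 at 24 h. In both TA animals of 6 h 4 were higher and 8 lower than the pool, against 22.9% and 38.4% of all genes. At 24 h 7 were higher and 2 lower, against 28.1% and 34.5%. Mid1ip1, a paralogue of Thrsp that activates acetyl-CoA carboxylase, was at 10.70 and 11.26 in TA animals against 11.78 in the pool at 6 h, and at 12.14 and 13.02 against 12.17 at 24 h. Its 6 h difference was -0.80 ± 0.48. Pklr, the liver pyruvate kinase and a classical ChREBP target, was at 10.58 and 10.94 in TA animals against 11.50 in the pool at 6 h (-0.74 ± 0.22) and at 10.52 and 10.77 against 11.15 at 24 h. Its TA animals were thus below both pools at both times, as those of Scd and Acaca were. Acacb, the second acetyl-CoA carboxylase, lay between 2.58 and 2.61 on all arrays, below the filter.

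Among regulators of the pathway 22 of 24 genes were measured, with medians of -0.020 at 6 h and 0.016 at 24 h. At 6 h 7 were higher and 8 lower in both animals, against 22.9% and 38.4% of all genes. At 24 h 8 were higher and 4 lower, against 28.1% and 34.5%. Trib3, a pseudokinase that restrains Akt, was at 5.65 and 5.41 in TA animals of 24 h against 4.68 in the pool (0.85 ± 0.23), but the pool of 6 h was at 6.68. Insr, the insulin receptor, was at 7.31 and 6.82 against 7.83 (-0.76 ± 0.43). Of the triglyceride genes 14 of 15 were measured, with a median of -0.15 at 6 h and 9 lower in both animals, and 0.074 at 24 h with 6 higher in both. The SREBP-2 targets of cholesterol synthesis, 14 of 18 measured, had 0.20 at 6 h with 10 higher in both animals and 3 lower, while the fatty acid synthesis genes had -0.42, and they had -0.023 at 24 h. Mvd, a decarboxylase of the mevalonate pathway, was at 8.47 and 8.26 in TA animals against 7.63 in the pool at 6 h (0.73 ± 0.15).

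Lists of fasting genes and of circadian clock genes were measured on the same arrays, and limma called none of them in any contrast. The 11 measured fasting and oxidation genes of 14 had a median difference of 24 h minus 6 h of -0.47 in TA and -0.39 in vehicle, and of TA from vehicle of 0.060 at 6 h and -0.066 at 24 h. Igfbp1, which insulin represses, was at 10.26 and 9.08 in TA animals against 8.41 in the pool at 6 h (1.26 ± 0.81). At 24 h it was at 5.85 and 7.16 against 8.02 (-1.51 ± 0.81). Ppargc1a, a fasting coactivator, was at 4.48 and 4.35 in TA animals of 24 h against 5.40 in the pool (-0.98 ± 0.15), with -0.03 on its other probe set. Of the 13 measured clock genes of 14, 8 were lower than the pool in both TA animals at 6 h, against 38.4% of all genes. Higher in both were 2, against 22.9%. The median was -0.49 at 6 h and 0.095 at 24 h. The clock genes' median difference of 24 h minus 6 h was 0.011 in TA and -0.0027 in vehicle. Both medians are the values of Per3, which lay between 3.01 and 3.07 on all 6 arrays, little above the filter. Per1 was also low and flat, between 3.33 and 3.37. Single genes differed by far more, in opposite directions. Cry1 differed by 4.33 in TA and 3.35 in vehicle, and Per2 by 3.60 and 2.76. Nr1d2 differed by -3.78 and -4.32, and Dbp by -3.10 and -4.42. Of the 13, 6 had both TA animals of 24 h above both of 6 h, against 24% of all genes. Another 3 had both below, against 23.2%. Dbp, a clock output factor, was at 7.80 and 6.85 in TA animals against 8.51 in the pool at 6 h (-1.19 ± 0.76), and at 4.91 and 3.56 against 4.09 at 24 h. Bhlhe40, a clock repressor, was at 4.47 and 7.81 in TA animals against 8.43 in the pool at 6 h (-2.29 ± 1.59). At 24 h it was at 8.16 and 9.11 against 7.32 (1.31 ± 1.59). The part of feeding state and time of day in the values of the 10 genes was not tested.

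Adipose tissue also makes fatty acids. Of 5 adipocyte markers with a probe set, Adipoq, Plin1 and Lep lay between 2.03 and 2.32 on all 6 arrays, at the floor of the values, while Cfd lay between 6.46 and 6.83 and Fabp4 between 3.12 and 3.67. The log2 of the summed level of the 5 was 7.13 and 7.02 in TA animals against 6.80 in the pool at 6 h, and 6.98 and 6.95 against 6.89 at 24 h. For stellate cells and fibroblasts the sum over 6 markers was 13.6 and 13.1 in TA animals against 13.2 in the pool at 6 h, and 12.2 and 12.6 against 12.8 at 24 h. For 5 macrophage markers it was 12.6 and 12.3 against 12.3 at 6 h, and 12.0 and 12.4 against 12.2 at 24 h. The summed sinusoidal endothelium markers, 4 with a probe set, were at 12.4 and 12.4 against 12.7, and 12.1 and 12.6 against 12.5, and the 3 of bile duct at 10.6 and 9.73 against 9.97, and 9.71 and 9.40 against 9.17. Their part in the values of the 10 genes was not tested.

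The mean profile of the 10 genes over the arrays, each gene taken relative to its own mean, was -0.38 and -0.19 in TA animals against 0.0086 in the pool at 6 h, and 0.13 and 0.086 against 0.35 at 24 h. The 6 genes most like it among 1542 candidates, by Pearson's r over the 6 arrays, were Rora (0.99), Psph (0.99), Nus1 (0.99), Jpt2 (0.98), Rbl1 (0.96) and Phpt1 (0.96). Rora, a nuclear receptor of the clock, was at 6.24 and 6.89 in TA animals against 7.31 in the pool at 6 h, and at 7.54 and 7.37 against 8.09 at 24 h. The 6 points share arrays, pools and runs, and the r is a description.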

How the data were processed

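Liver RNA was measured on 6 Affymetrix rat arrays, and the authors deposited 1 table of log2 values. The submitters' processing notes name R 2.0.1 with affy 1.5.8 and the methods RMA and GCRMA. Which method made the deposited log2 values is not given in these sources. Values have a floor near 2, where differences are compressed. Of 31099 probe sets, 57 control ones were left out. A filter on the mean of the 6 arrays, at its 40th percentile (2.82), left 18625.

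Limma 3.58.1 in R 4.3.3 fitted 1 mean per group to all 6 arrays, by lmFit and eBayes. The residual degrees of freedom were 2 and those of the prior 1.60. Standard errors assume that a vehicle pool varies like a TA animal. P-values are two-sided, were adjusted by the Benjamini-Hochberg method over all 18625 probe sets and were called under 0.05, and they measure only the spread between these animals. The fit was tested on simulated data in which every array varied alike and on its own. That test therefore does not bear on the assumption about the pools or on the runs. With 1 array each, the vehicle pools were compared by values only.

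The members and lists were chosen with earlier results of these data known. All members are described. In other lists the genes named were those called, otherwise up to 2 each way with the largest difference among those at least 0.5 from the pool in both animals. Acacb, Adipoq, Plin1, Lep, Cfd, Fabp4, Cry1, Per1, Per2, Per3 and Nr1d2 stand outside this rule and were chosen after their values were seen. Genes of like pattern had a range of at least 1 and the 6 highest r. Symbols came from the platform annotation, which pairs 20826 probe sets with 1 symbol, 436 with several and 9780 with none, and coordinates and promoters from RefSeq GRCr8. Alternatives covered the filter, prior, normalization, vehicle pool, hybridize run, replicate block, probe set summary and leaving out animals.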

Additional observations from a re-analysis of the deposited data

Results flagged for a closer look

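For 4 of the 10 genes both TA animals differed from vehicle in one direction at 6 h and in the other at 24 h. The effect of TA at 24 h minus that at 6 h (log2) was 0.85 for Srebf1 and 0.87 for Thrsp. These were lower than vehicle at 6 h and higher at 24 h, a course shared by 10.3% of all genes. It was -0.63 for Elovl6 and -0.57 for Acss2, which were higher at 6 h and lower at 24 h. The share of all genes with that reverse course was not counted, so the 4 of 10 has no share over all genes to stand beside. Limma's interaction contrast tested each difference, and its adjusted p was 1.00 for all 4. For Elovl6 and Acss2 the direction at 24 h depended on the vehicle pool used, and for Elovl6 so did the direction at 6 h.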

How the results depend on the processing

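Of 504 alternative values of the 10 genes' differences, 468 kept their sign and 36 did not. Many of the 504 could not turn, so the share that kept its sign is no measure of stability. Another filter or prior and the replicate block leave each difference as it was. Leaving out a TA animal does not touch the difference from vehicle at the other time. The run as a block does not touch that at 24 h, where all arrays share a run. No gene was called in the values with a test, the 24 from the mean of a gene's probe sets having none. The signs of Srebf1, Thrsp, Scd and Acaca against their vehicle pool held under every alternative run. The count of probe sets called at 6 h was 1 against the vehicle pool of 24 h. At 24 h, in place of 1, it was 0 with both pools as 1 control group, with the filter at the 60th percentile, with the run as a block and against the pool of 6 h, 2 with a robust prior and trend, and 0 to 2 without each animal in turn. For the difference of effects it was 0 with the stricter filter, the run, the replicate block and without each animal in turn. The replicate block is balanced within each TA pair and so could turn none of its 40 values. Otherwise it left the counts at 0, 1 and 0 at 6 h, at 24 h and between TA groups. Same-numbered TA animals are different animals, and their deviations correlated at -0.079. The genes' median at 6 h was -0.80 against the pool of 24 h and -0.51 to -0.13 without each animal, and at 24 h it was 0.045 against the pool of 6 h.

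With both pools as 1 control group the 6 h difference was -0.37 for Acly, -0.43 for Elovl6, 0.043 for Elovl5 and 1.02 for Dbp, and against the other pool -0.79, -1.09, 0.14 and 3.24. At 24 h, both pools gave 0.39 for Acly, 0.25 for Elovl6 and -0.15 for Trib3, and the other pool 0.81, 0.91 and -1.15, with 0.034 for Fasn and 0.056 for Acss2. The mean of the probe sets gave Elovl5 0.079 at 6 h and 0.18 at 24 h, Me1 0.33 between TA groups and Fasn 0.11 for the difference of effects. With the run as a block that difference was 0.15 for Fasn and -0.011 for Elovl5, and with quantile normalization -0.041 for Elovl5. Centring gave Me1 0.014 between TA groups. Without each animal in turn, Acly spanned -0.082 to 0.17 at 6 h, and at 24 h Acly -0.17 to 0.12, Elovl5 -0.16 to 0.10 and Me1 -0.32 to 0.042. Between TA groups Fasn spanned -0.0051 to 0.94, Scd -0.44 to 0.27 and Me1 -0.18 to 0.18. For the difference of effects Fasn spanned -0.62 to 0.32, Acly -0.21 to 0.080, Scd -0.024 to 0.69 and Elovl5 -0.11 to 0.16. The cause was not tested. A vehicle pool could not be left out, since each group has 1, and the number of arrays limits every value.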
